A study of Homo sapiens with 3 samples.

Results

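The WNT ligand genes described here are 10 members of the family that encodes the secreted WNT proteins: WNT3A, WNT4, WNT5A, WNT5B, WNT6, WNT7A, WNT7B, WNT9A, WNT10A and WNT11. They were taken by name, with no rule on their values, from the 29689 genes of a table of RNA-seq levels. Earlier results of these data were known when they were chosen. The table holds 1 library from each of 3 tumors grown from SUM-149, a human triple-negative (lacking estrogen receptor, progesterone receptor and HER2) breast cancer cell line, after injection with an equal part of Matrigel into the mammary fat pads of female Nu/Nu mice, which lack T cells. The vehicle tumor was mock treated, the CDK2i tumor came from treatment with dinaciclib, labelled a CDK2 inhibitor, and the EZH2i tumor from treatment with EPZ6438, an inhibitor of EZH2. Both inhibitors were given for 10 days, and no genotype differed between the tumors. The study's text on its SUM-149 xenografts names a different EZH2 inhibitor, GSK343, so the EZH2i tumor is described here as labelled. With 1 library per group no test between groups and no replicate spread can be had, and every difference is one between individual tumors. In bulk tumor RNA, fewer cells of a type and less RNA per cell cannot be told apart.

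WNT proteins are lipid-modified by the acyltransferase PORCN and carried to the cell surface by WLS. Canonical ligands bind a Frizzled receptor together with LRP5 or LRP6, which spares beta-catenin from its destruction complex and lets it act with TCF/LEF factors in the nucleus. Noncanonical ligands act mostly without beta-catenin, through Frizzled with ROR or RYK receptors, on cell movement and planar polarity. In the mammary gland WNT4 acts downstream of progesterone in ductal branching and WNT5A restrains ductal growth. CDK2 is a cyclin-dependent kinase of the cell cycle. EZH2 is the enzyme of Polycomb repressive complex 2 that methylates lysine 27 of histone H3, a mark of silent genes often placed at promoters rich in the dinucleotide CG. By the usual classes, WNT3A, WNT6, WNT7A, WNT7B, WNT9A and WNT10A were counted as the 6 canonical members, and WNT4, WNT5A, WNT5B and WNT11 as the 4 noncanonical ones.

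The members differ in how dense their promoters are in CG. The RefSeq promoter windows (GRCh38.p14, 250 bases before to 50 after a start site) were available for 8 of the 10 members, with 2 windows each for WNT5A and WNT5B. Windows for WNT7B and WNT11 were not used here. The following 4 windows of 300 bases are shown because they span the range from dense to sparse and pair a transcribed member with a silent one: WNT9A with its chromosome 1 neighbor WNT3A, and the noncanonical WNT5A with its closest relative WNT5B. They are written 5′ to 3′ on the strand of the gene, with each CG in capitals, at chr1:227947883-227948182 (minus strand), chr1:228006748-228007047 (plus strand), chr3:55487257-55487556 (minus strand) and chr12:1616806-1617105 (plus strand), in this order.
WNT9A: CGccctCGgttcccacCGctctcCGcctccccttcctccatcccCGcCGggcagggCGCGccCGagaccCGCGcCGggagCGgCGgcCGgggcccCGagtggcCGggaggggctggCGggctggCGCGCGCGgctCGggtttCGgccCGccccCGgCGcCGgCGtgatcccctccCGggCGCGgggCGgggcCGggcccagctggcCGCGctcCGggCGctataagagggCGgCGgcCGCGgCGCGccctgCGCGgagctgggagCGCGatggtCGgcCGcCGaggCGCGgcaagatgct
WNT3A: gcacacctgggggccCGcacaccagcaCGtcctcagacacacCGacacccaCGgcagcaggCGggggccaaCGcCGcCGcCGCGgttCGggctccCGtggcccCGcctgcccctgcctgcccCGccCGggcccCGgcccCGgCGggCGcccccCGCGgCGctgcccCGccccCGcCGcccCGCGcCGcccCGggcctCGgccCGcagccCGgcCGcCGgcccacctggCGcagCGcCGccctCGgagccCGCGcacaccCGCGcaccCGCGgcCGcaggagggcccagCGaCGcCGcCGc
WNT5A: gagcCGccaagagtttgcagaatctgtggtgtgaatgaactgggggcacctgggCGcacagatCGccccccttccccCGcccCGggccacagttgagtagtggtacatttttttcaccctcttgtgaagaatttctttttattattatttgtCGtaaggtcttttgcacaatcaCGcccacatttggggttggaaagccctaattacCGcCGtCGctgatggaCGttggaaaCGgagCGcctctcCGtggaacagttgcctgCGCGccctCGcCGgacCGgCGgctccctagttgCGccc
WNT5B: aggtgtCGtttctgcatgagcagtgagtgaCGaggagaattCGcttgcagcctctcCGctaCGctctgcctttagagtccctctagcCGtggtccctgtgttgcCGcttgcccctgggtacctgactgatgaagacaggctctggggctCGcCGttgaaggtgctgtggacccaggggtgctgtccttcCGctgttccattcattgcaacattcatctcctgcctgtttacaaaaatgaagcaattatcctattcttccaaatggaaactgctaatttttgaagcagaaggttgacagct

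A search for the letters CG, which read the same on both strands, found 53 in the WNT9A window and 49 in that of WNT3A. Over all 35116 promoter windows the median was 14, and 96.0% held at least 1. As many as in WNT9A were found in 0.604% of all windows, and as many as in WNT3A in 1.60%. The WNT4 window held 47 (2.41% of all windows hold as many), that of WNT7A 40 (7.61%), that of WNT6 37 (11.3%) and that of WNT10A 30 (22.4%). The WNT5A window shown held 21 and the second one, at chr3:55481349-55481648 on the minus strand, held 22. The WNT5B windows were the sparsest, with 10 in the one shown and 7 in the other, at chr12:1628981-1629280 on the plus strand. Dense windows belonged to transcribed members (WNT9A, WNT4) and to silent ones (WNT3A, WNT7A) alike.

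Levels were deposited as log2 FPKM (fragments per kilobase of transcript and per library size), so that genes can be compared per length within a tumor. A value of -9 stands for an FPKM of 0. The steps between the lowest values placed the depth near 16800000 fragments for the vehicle, 19200000 for the CDK2i and 17500000 for the EZH2i tumor. This allowed the approximate number of fragments behind each value to be given. In the vehicle tumor 7 members lay above log2 FPKM 1 and were also detected in both treated tumors. The other 3 (WNT3A, WNT5B and WNT7A) lay below log2 FPKM 0 in every tumor.

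**Figure D1:**
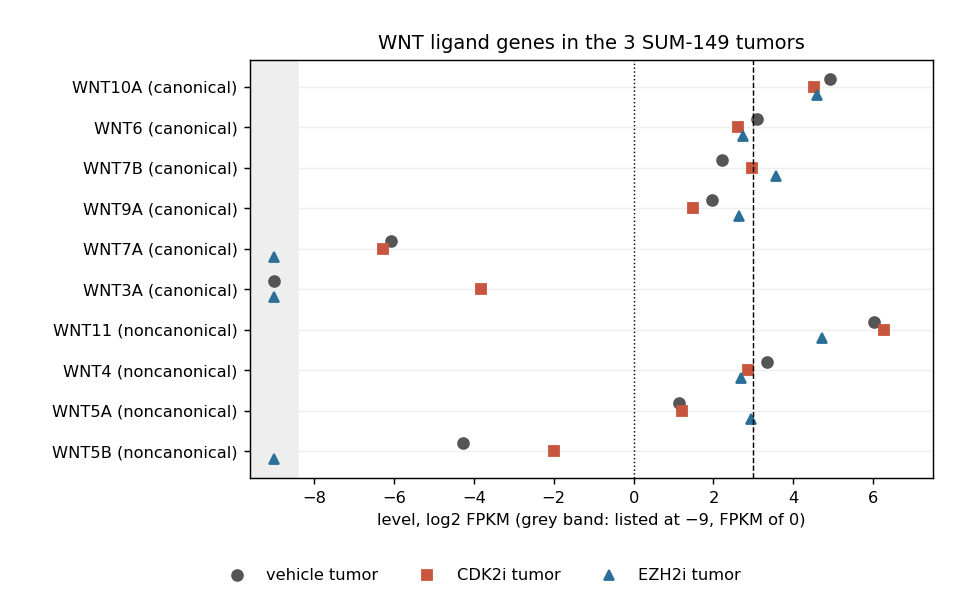
Level of each WNT ligand gene (log2 FPKM, horizontal axis) in the vehicle (circle), CDK2i (square) and EZH2i (triangle) tumor, 1 library each, ordered by class and vehicle level. The dotted line marks log2 FPKM 0, the dashed line log2 FPKM 3, and the grey band holds genes listed at -9. WNT11 is highest in all 3 tumors and 3 members stay to the left of the dotted line.

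Among the noncanonical ligands, WNT11, known for its part in the convergent cell movements of gastrulation, was the most abundant WNT ligand of every tumor. Its gene lies on GRCh37 at chr11:75897369-75921780 on the minus strand. Its level was 64.3 FPKM under vehicle, 77.3 FPKM under CDK2i and 26.5 FPKM under EZH2i (log2 FPKM 6.01, 6.27 and 4.73), from about 2054, 2814 and 884 fragments. The EZH2i tumor was thus the low one. In the vehicle tumor WNT11 was above 96.9% of all genes in the table, in the CDK2i tumor above 97.2% and in the EZH2i tumor above 91.3%. WNT11 alone made up 51.9% of the summed FPKM of the 10 members under vehicle, 60.9% under CDK2i and 29.7% under EZH2i.

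WNT4 (chr1:22443806-22470462, minus strand) had 10.1 FPKM under vehicle, 7.25 FPKM under CDK2i and 6.47 FPKM under EZH2i (log2 FPKM 3.34, 2.86 and 2.69). It was highest in the vehicle tumor and similar in the treated ones. WNT5A (chr3:55499743-55524567, minus strand) had 2.20 FPKM under vehicle, 2.32 FPKM under CDK2i and 7.71 FPKM under EZH2i (log2 FPKM 1.14, 1.21 and 2.95), from about 223, 268 and 817 fragments. Only in the EZH2i tumor did WNT5A exceed the level of WNT4.

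Among the canonical ligands, WNT10A, which acts in the development of teeth, hair and skin, was the most abundant and ranked second of all members in every tumor. WNT10A (chr2:219745574-219764303, plus strand) had 30.1 FPKM under vehicle, 22.9 FPKM under CDK2i and 24.0 FPKM under EZH2i (log2 FPKM 4.91, 4.52 and 4.58). WNT6 (chr2:219724528-219738955, plus strand) had 8.47, 6.13 and 6.63 FPKM in the same order (log2 FPKM 3.08, 2.62 and 2.73). Both were highest in the vehicle tumor. These genes are neighbors on the same strand, with start sites 21.0 kb apart, and WNT10A was the higher one in every tumor.

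WNT7B (chr22:46316246-46373042, minus strand), a ligand of lung and vascular development, had 4.62 FPKM under vehicle, 7.82 FPKM under CDK2i and 11.9 FPKM under EZH2i (log2 FPKM 2.21, 2.97 and 3.57), from about 307, 592 and 821 fragments. It was higher in both treated tumors and ranked behind only WNT11 and WNT10A in each. WNT9A (chr1:228106357-228135633, minus strand), a ligand of joint formation, had 3.93 FPKM under vehicle, 2.80 FPKM under CDK2i and 6.24 FPKM under EZH2i (log2 FPKM 1.98, 1.49 and 2.64). The CDK2i tumor was the low one and the EZH2i tumor the high one.

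From the highest to the lowest level, the order in the vehicle tumor was WNT11, WNT10A, WNT4, WNT6, WNT7B, WNT9A and WNT5A. With CDK2i, WNT7B moved ahead of WNT4 and WNT6, and the rest of this order was the same. In the EZH2i tumor the order was WNT11, WNT10A, WNT7B, WNT5A, WNT6, WNT4 and WNT9A. The last 4 of these spanned only 6.24 to 7.71 FPKM, and without replicates no test of their order was possible.

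The silent members rested on a few fragments. WNT5B (chr12:1639057-1756378, plus strand) had about 2 fragments in the vehicle tumor (95% Poisson interval 0.242 to 7.22, counting error only), 11 in the CDK2i tumor (5.49 to 19.7) and 0 in the EZH2i tumor. Its levels were 0.0517, 0.249 and 0 FPKM. A floor of 3 fragments in the EZH2i tumor stands at 0.0764 FPKM, and the upper limit of the Poisson interval for 0 fragments is 3.69 fragments. The CDK2i to vehicle ratio of 4.82 has a wide counting interval (log2 difference 2.27, 0.07 to 5.49) and shrank to 0.25 on the log2 scale once 1 FPKM was added to both values. WNT7A (chr3:13857755-13921568, minus strand) had about 1 fragment under vehicle, 1 under CDK2i and 0 under EZH2i. WNT3A (chr1:228194699-228248972, plus strand), the ligand most used to set off canonical signaling in culture, was listed at -9 in the vehicle and EZH2i tumors and had about 4 fragments in the CDK2i tumor (1.09 to 10.2). WNT3A starts 59.1 kb from WNT9A, which had 215 to 438 fragments. No change was read from the silent genes.

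The comparison of the CDK2i with the vehicle tumor asked which ligand genes differed between them. By the study's text dinaciclib also inhibits CDK1, CDK5 and CDK9, so no difference can be assigned to CDK2. No WNT ligand gene passed the thresholds of the study's methods, a fold above 2 (1 on the log2 scale) with the higher of both levels above log2 FPKM 3 (8 FPKM). Of all genes that reached this level, 11.3% passed both thresholds, 3.27% as higher and 8.07% as lower, and 4 of the members reached it. Of the 7 members above log2 FPKM 1, 3 were higher and 4 lower in the CDK2i tumor, with a median log2 change of -0.39. The median over the 11109 genes with a mean above log2 FPKM 1 and no value at -9 was -0.11, with 41.9% of them higher and 58% lower.

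The difference of WNT7B was 0.76 on the log2 scale (95% counting interval 0.56 to 0.96, a 1.69-fold higher level), that of WNT11 0.27 (0.18 to 0.35) and that of WNT5A 0.08 (-0.19 to 0.34). The lower ones were WNT9A with -0.49 (-0.76 to -0.23), WNT4 with -0.48 (-0.65 to -0.32), WNT6 with -0.47 (-0.74 to -0.19) and WNT10A with -0.39 (-0.52 to -0.26). The interval of WNT5A includes 0. The counting intervals cover the sampling of fragments and not the variation between tumors. As a stand-in for the latter, the SD of the differences between both treated tumors over the 200 genes nearest in mean level was 0.64 (WNT10A) to 1.04 (WNT5A), drug effects included. None of the 7 CDK2i differences exceeded this SD. The share of all genes beyond it was not computed. When each library was centred on its median gene or scaled to equal sums, every sign held except that of WNT5A, which ranged from -0.07 to 0.26.

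The comparison of the EZH2i with the vehicle tumor asked which ligand genes differed between that pair. WNT7B rose and WNT11 fell past both thresholds, which makes 2 of the 5 members that reached the level of 8 FPKM. Of all genes at that level 13.4% passed, 8.93% as higher and 4.42% as lower. WNT5A was past the fold but stayed just under the level threshold with 7.71 FPKM. Of the 7 members above log2 FPKM 1, 3 were past the fold, against a background of 14.7% of genes (10.2% higher, 4.53% lower).

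WNT7B was 2.57-fold higher, a log2 difference of 1.36 (95% counting interval 1.17 to 1.55), with 4.62 FPKM in the vehicle and 11.9 FPKM in the EZH2i tumor. WNT5A was 3.50-fold higher (log2 1.81, 1.60 to 2.03). WNT11 fell by 1.28 on the log2 scale (-1.39 to -1.16), from 64.3 to 26.5 FPKM. These 3 differences exceeded the SD over genes of like level (0.81, 1.04 and 0.73), and those of the other 4 expressed members did not. The share of all genes beyond this SD was not computed, so it does not set these 3 apart from genes at large. WNT9A differed by 0.67 (0.44 to 0.89), WNT4 by -0.65 (-0.82 to -0.47), WNT6 by -0.35 (-0.63 to -0.08) and WNT10A by -0.33 (-0.46 to -0.20). With 3 higher and 4 lower, the median of the 7 was -0.33, beside 0.19 over all genes, of which 61.5% were higher and 38.5% lower.

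**Figure D2:**
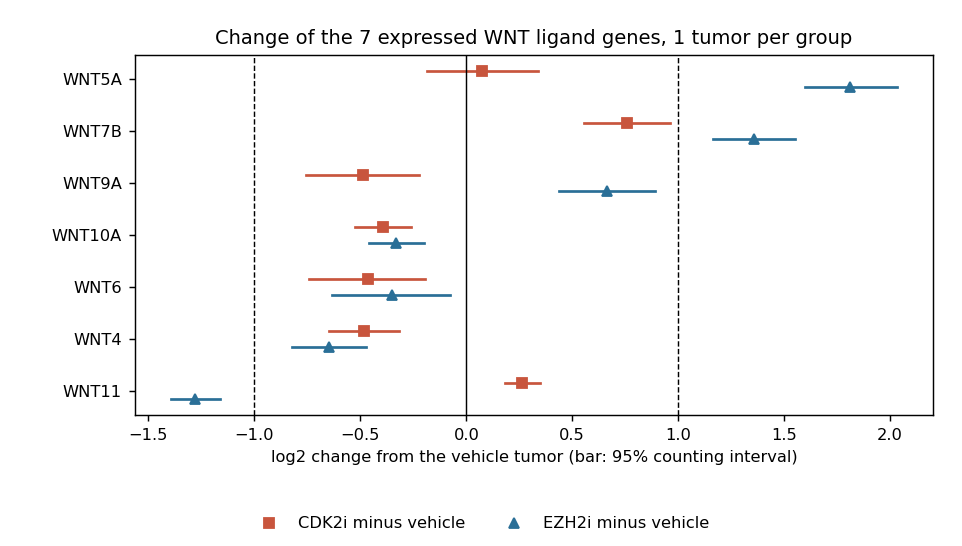
Log2 change from the vehicle tumor (horizontal axis) of the 7 WNT ligand genes above log2 FPKM 1, for the CDK2i (square) and the EZH2i (triangle) tumor, 1 library each. Bars are 95% counting intervals and dashed lines mark the 2-fold threshold. In EZH2i, WNT5A and WNT7B lie to the right of the upper line and WNT11 to the left of the lower one, and no CDK2i value crosses a line.

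Across genes, the EZH2i difference moved with base composition. The genes used were the 10204 expressed ones with an annotation, ribosomal protein genes left out. The Spearman correlation of the EZH2i difference was -0.571 with the GC content of the longest annotated transcript and 0.453 with its length. For the CDK2i difference these were 0.0358 and 0.0903. All these genes share the same libraries and are not independent replicates. The WNT5A transcript has a GC content of 42.3% and the other 6 expressed members 58.2% (WNT4) to 70.4% (WNT6), with WNT11 at 59.3%. After a trend in GC content and length fitted over the same 10204 genes was subtracted, the EZH2i difference was 1.56 for WNT7B, 1.16 for WNT5A and 0.77 for WNT9A. WNT11 then differed by -0.92 and no longer passed the fold, WNT4 differed by -0.59, and the signs of WNT6 (0.23) and WNT10A (0.11) turned. The tally of the 7 then became 5 higher and 2 lower, and their median turned from -0.33 to 0.23, beside 0.02 over the genes of the fit. Whether the trend comes from the library or from the treatment cannot be told apart with 1 library.

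**Figure D3:**
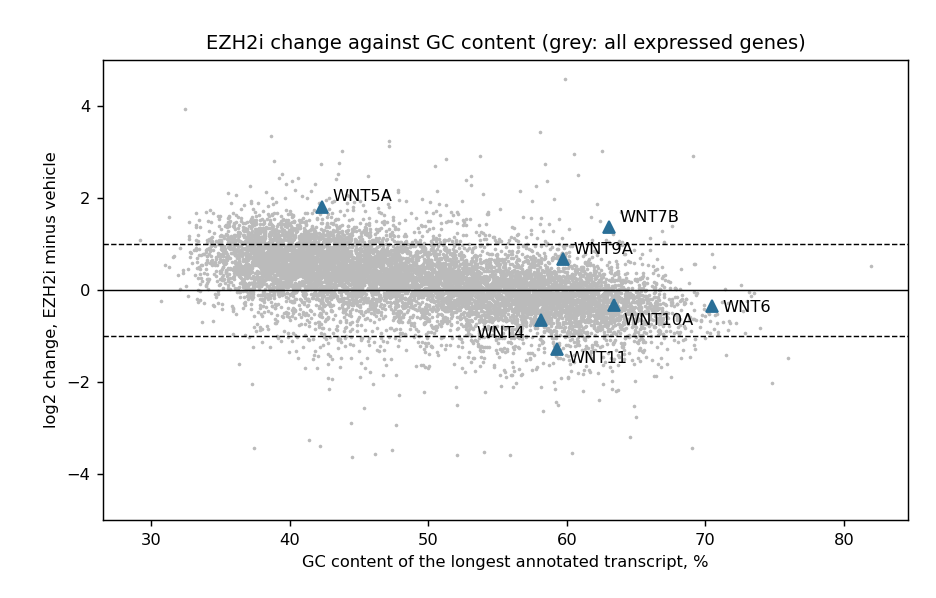
Log2 change from the vehicle to the EZH2i tumor (vertical axis) against the GC content of the longest annotated transcript in percent (horizontal axis). Grey points are the expressed genes with an annotation, triangles the 7 expressed WNT ligand genes, and dashed lines the 2-fold threshold. The cloud slopes downward, WNT5A has the lowest GC content of the 7 (42.3%), and WNT7B and WNT11 lie on opposite sides at 63.0% and 59.3%.

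The scale of the libraries also moved the values. Centring on the median gene shifted all EZH2i differences by -0.25 on the log2 scale and equal summed FPKM by 0.24. Over these settings, the pseudocounts and the trend removal, WNT7B ranged from 1.11 to 1.60, WNT5A from 1.16 to 2.05 and WNT11 from -1.53 to -0.92. Their signs held in each of the 6 settings, as did those of WNT9A (0.42 to 0.91) and WNT4 (-0.90 to -0.41).

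**Figure D4:**
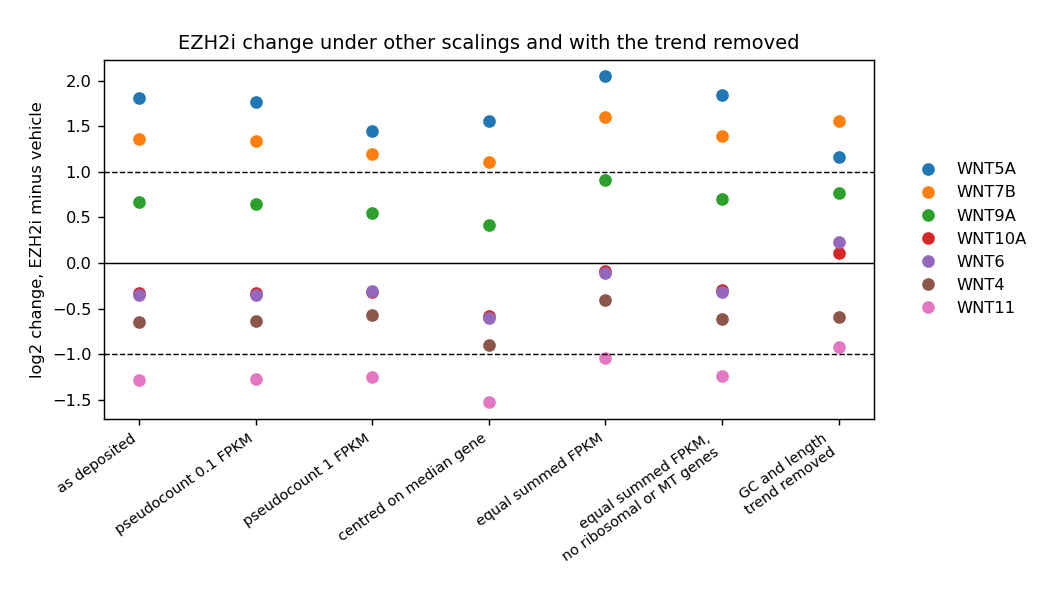
Log2 change from the vehicle to the EZH2i tumor (vertical axis) of the 7 expressed WNT ligand genes as deposited and under 6 other settings (horizontal axis). Dashed lines mark the 2-fold threshold. WNT5A and WNT7B stay above the upper line in every setting, WNT11 is between the lines only after the trend removal, and WNT6 and WNT10A change sign there.

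The EZH2i and CDK2i differences share the vehicle library, so the treated tumors were also compared with each other. Of the 3 members that reached 8 FPKM in either, WNT11 passed both thresholds. Its level was lower in the EZH2i tumor by a log2 difference of -1.54 (-1.65 to -1.43). The background was 24.1% of genes, 17.5% higher in EZH2i and 6.52% lower. WNT5A (1.73, 1.53 to 1.94) and WNT9A (1.15, 0.91 to 1.40) were past the fold below 8 FPKM. These 3 of 7 stand beside 27.3% of all expressed genes past the fold (21.6% higher, 5.73% lower). In sign, 5 members were higher and 2 lower, beside 66.9% and 33% of all genes. WNT7B differed by 0.60 (0.44 to 0.75), and the intervals of WNT10A (-0.07 to 0.20), WNT6 (-0.18 to 0.40) and WNT4 (-0.34 to 0.02) included 0. With the trend removed, WNT11 (-1.37) and WNT9A (1.15) were past the fold and WNT5A was at 0.96. WNT6 moved from 0.11 to 0.97, WNT10A from 0.06 to 0.44 and WNT7B from 0.60 to 0.78.

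Summed over the members, the noncanonical ligands held more FPKM than the canonical ones in the vehicle and CDK2i tumors and less in the EZH2i tumor. The noncanonical sum was 76.7 FPKM under vehicle, 87.1 FPKM under CDK2i and 40.7 FPKM under EZH2i, 61.9%, 68.6% and 45.5% of all members. The canonical sum was 47.1, 39.8 and 48.7 FPKM in the same order. The noncanonical sum follows WNT11, its main part. The other noncanonical ligand with a difference past the fold, WNT5A, was higher under EZH2i than under vehicle.

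In the GENCODE annotation, the lncRNA gene WNT5A-AS1 lies within the span of WNT5A on the opposite strand (chr3:55521727-55522336, plus strand). In RefSeq their start sites used here are 312 bases apart, head to head, and transcripts from these would run apart without overlap. Whether the genes overlap thus depends on the annotation, and overlap of their exons was not checked. WNT5A-AS1 had 2.74 FPKM under vehicle, 2.93 FPKM under CDK2i and 7.19 FPKM under EZH2i, from about 23, 28 and 63 fragments. Its log2 difference was 0.10 in CDK2i (-0.75 to 0.96) and 1.39 in EZH2i (0.68 to 2.15), beside 0.08 and 1.81 for WNT5A. With the trend removed, the EZH2i difference was 2.20 for WNT5A-AS1, whose transcript has a GC content of 67.6%, and 1.16 for WNT5A, so the order of the pair turned. Whether the counting used strand is not given in the sources used here, and without strand the reads of an overlapping pair cannot be told apart.

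Over the 3 libraries, the genes closest to WNT11 in log2 FPKM, out of 2016 candidates, were FOXC1, a forkhead transcription factor, BCAM, a laminin-binding adhesion molecule, and CRABP2, a retinoic acid carrier. Their Euclidean distances from WNT11 were 0.0474 for FOXC1, 0.0847 for BCAM and 0.104 for CRABP2, each after the profile was centred on its own mean. FOXC1 had log2 FPKM 5.67 under vehicle, 6.0 under CDK2i and 4.45 under EZH2i. With 3 points per profile this is a description only.

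Of the 8 WNT ligand genes in the table that were not among the members, 0 reached 8 FPKM, so none could pass both thresholds, and 3 were above log2 FPKM 0 in any tumor. WNT3 had log2 FPKM 1.52 under vehicle, 0.70 under CDK2i and 1.73 under EZH2i. WNT2B had 0.63, 1.28 and 0.62 in this order. WNT10B, a mammary ligand, had 0.39, 0.39 and 1.41 from about 49, 56 and 105 fragments, an EZH2i difference of 1.02 that is past the fold. The remaining 5 (WNT1, WNT2, WNT8B, WNT9B and WNT16) stayed below log2 FPKM 0.

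Genes that release, receive or relay WNT ligands were measured in 9 further lists. In these lists, 81 of 84 genes were in the table. In CDK2i 3 were higher and 1 lower past both thresholds of 33 that reached 8 FPKM (background 11.3%). In EZH2i 3 were higher and 0 lower of 34 (background 13.4%). Of the 3 acylation and secretion genes 2 reached 8 FPKM, and 0 passed in either comparison. PORCN had log2 FPKM 3.92 under vehicle, 4.16 under CDK2i and 3.0 under EZH2i, and WLS had 3.91, 4.05 and 4.19. NOTUM, which removes the lipid of WNT proteins, had -0.53, 0.68 and 0.35.

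Of the 10 Frizzled receptor genes 3 reached the level of 8 FPKM, and 0 of these passed. FZD7 had log2 FPKM 5.19 under vehicle, 4.73 under CDK2i and 4.66 under EZH2i. FZD6 had 4.51, 4.97 and 4.66, and FZD1 had 3.65, 2.93 and 3.06. Below that level, FZD4 and FZD2 were past the fold in CDK2i, beside 13.9% of all expressed genes (10.9% lower). FZD4 had log2 FPKM 2.12, -0.36 and 2.19 from about 539, 110 and 592 fragments, a CDK2i difference of -2.48. FZD2 had 2.51, 0.43 and 1.70 from about 363, 97 and 216 fragments, a CDK2i difference of -2.09. The median change of the 6 expressed ones was -0.76 in CDK2i and -0.22 in EZH2i, beside -0.11 and 0.19 over all genes.

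Of the 8 coreceptor genes 4 reached 8 FPKM, and 0 passed in either comparison. PTK7, a polarity receptor, had log2 FPKM 5.95 under vehicle, 6.10 under CDK2i and 5.80 under EZH2i. The canonical coreceptor LRP5 had 4.82, 5.23 and 4.62. ROR2, a receptor for WNT5A, had 4.05, 3.15 and 3.55. Below 8 FPKM, GPR124 was past the fold in both comparisons, with log2 FPKM -0.18, 1.27 and 1.14 from about 103, 322 and 268 fragments. Its differences were 1.45 and 1.32. LRP6 had 1.31, 1.38 and 2.43, an EZH2i difference of 1.12 that was 0.30 with the trend removed. Of genes with a mean above log2 FPKM 1, which GPR124 stayed under, 13.9% were past the fold in CDK2i and 14.7% in EZH2i.

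Among the secreted antagonists, 9 of 12 were in the table, and 1 reached 8 FPKM in the CDK2i and 2 in the EZH2i comparison. SFRP1, a decoy that binds WNT proteins, rose in both comparisons, and DKK1, which blocks LRP coreceptors, rose in EZH2i. SFRP1 had log2 FPKM 5.16 under vehicle, 6.54 under CDK2i and 6.45 under EZH2i, differences of 1.38 and 1.29. After the trend removal they were 1.57 and 1.01. SFRP1 is on a gene list the study drew from these data, so its direction is not independent evidence. DKK1 had log2 FPKM 2.01 under vehicle, 0.43 under CDK2i and 3.18 under EZH2i, and its EZH2i difference of 1.17 was 0.98 with the trend removed. Below the level threshold, SFRP5 had 0.81, 1.92 and -1.84, and DKK3 had -0.72, 1.28 and 0.27. DKK1 was thus low in the CDK2i and high in the EZH2i tumor, as WNT9A was.

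Of the 11 genes for R-spondins, their LGR receptors, the ligases RNF43 and ZNRF3 that remove Frizzled from the surface, and the DKK receptors KREMEN1 and KREMEN2, 4 reached 8 FPKM in the CDK2i and 3 in the EZH2i comparison, and 0 passed. KREMEN2 had log2 FPKM 4.86 under vehicle, 5.30 under CDK2i and 5.02 under EZH2i, LGR4 had 3.57, 3.75 and 4.19, and KREMEN1 had 3.54, 3.70 and 3.67. Below that level both ligases were past the fold in CDK2i. Of genes with a mean above log2 FPKM 1, which both ligases stayed under, 10.9% were lower past the fold. RNF43 had 1.58, -0.35 and 1.66 from about 279, 84 and 309 fragments (a CDK2i difference of -1.92), and ZNRF3 had 1.28, -0.38 and 1.58 from about 280, 101 and 362 (-1.66). Of 11 destruction complex and beta-catenin genes 7 reached 8 FPKM in the CDK2i and 8 in the EZH2i comparison, and 0 passed. The highest genes of this list were CTNNB1, which encodes beta-catenin (log2 FPKM 6.53, 6.97 and 7.05), and the scaffold genes DVL1 (6.27, 6.82 and 6.31) and DVL3 (5.26, 5.51 and 5.37). Below 8 FPKM, APC was past the fold in EZH2i, with a difference of 1.22 from about 172 and 419 fragments. Of genes with a mean above log2 FPKM 1, which APC stayed under, 14.7% were past the fold in EZH2i. For the same reason APC has no value with the trend removed. Of 12 TCF/LEF factors and cofactors, 6 reached 8 FPKM in the CDK2i and 5 in the EZH2i comparison. TLE2 rose by 1.25 and TLE3 fell by 1.45 on the log2 scale in CDK2i, both Groucho-type corepressors. In EZH2i 0 passed, with TLE2 at -0.47 and TLE3 at 0.41. Below 8 FPKM, TCF7L2 was past the fold in CDK2i (-1.07), beside 10.9% of all expressed genes lower past the fold. With the trend removed its CDK2i difference was -0.87 and no longer past the fold. The top genes of that list were TLE1 (4.59, 4.44 and 4.48), PYGO2 (3.61, 2.91 and 3.63) and BCL9L (3.29, 2.99 and 3.22).

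The negative feedback targets of canonical signaling were low. Of 12 such genes 0 reached 8 FPKM in the CDK2i comparison, so none could pass, and only DKK1, also on the antagonist list, reached it in EZH2i, where it passed. On the fold alone, of the 11 with no value at -9, 5 were higher and 4 lower in CDK2i, and 1 was higher and 2 lower in EZH2i, several on few fragments. Of genes with a mean above log2 FPKM 1, 13.9% were past the fold in CDK2i and 14.7% in EZH2i. Only 3 of these 12 genes have such a mean and no value at -9. No share was computed for genes at lower levels, so nothing is read from these counts. AXIN2, the most used readout of canonical signaling, had about 3 fragments under vehicle, 0 under CDK2i and 4 under EZH2i. TCF7 had log2 FPKM 1.33, 1.20 and 1.73. APCDD1 had log2 FPKM 0.22, 1.66 and -3.17, from about 74, 230 and 7 fragments, and SP5 had 0.46, -2.28 and -0.11, from about 47, 8 and 33. Of 13 noncanonical and planar polarity genes, 6 reached 8 FPKM in the CDK2i and 7 in the EZH2i comparison. The cadherin gene CELSR1 rose by 1.19 in CDK2i (log2 FPKM 2.73, 3.92 and 3.55 in the vehicle, CDK2i and EZH2i tumors). VANGL1 rose by 1.04 in EZH2i (2.48, 1.78 and 3.52), and its difference was 0.38 with the trend removed. Below 8 FPKM, CAMK2D was past the fold in both comparisons, by 1.16 in CDK2i and 1.26 in EZH2i (0.46 with the trend removed). PRICKLE1 was past it in CDK2i (-1.50). The highest of this list were SCRIB (5.76, 6.61 and 5.56), CELSR2 (5.19, 5.52 and 5.33) and CELSR3 (3.58, 3.40 and 3.85).

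**Figure D5:**
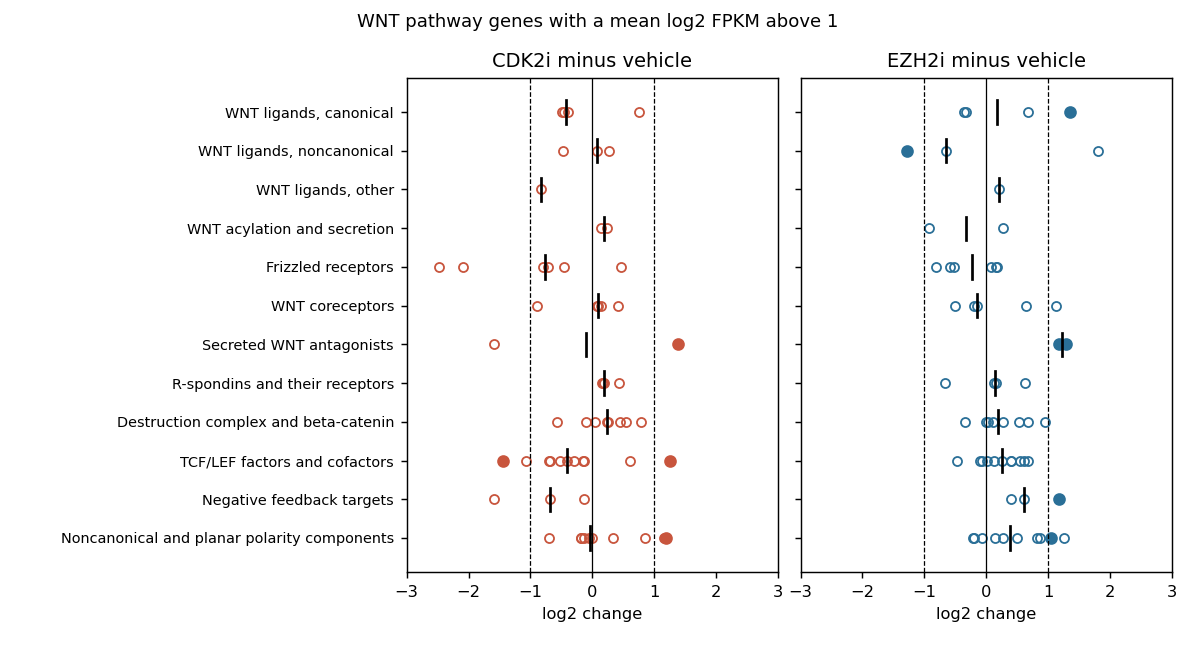
Log2 change from the vehicle tumor (horizontal axes) of the WNT pathway genes that average over log2 FPKM 1 and were never listed at -9, by list, for the CDK2i (left) and EZH2i (right) tumor. Filled points passed both thresholds, black bars are list medians and dashed lines the 2-fold threshold. Filled points are few in every list, WNT7B and WNT11 among them in EZH2i, and SFRP1 is filled in both.

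Reads were aligned to the human genome, and how reads from mouse host cells were kept apart is not given in the sources used here. The 8 epithelial markers were above log2 FPKM 0 in every tumor, summing to 6392 FPKM under vehicle, 13249 FPKM under CDK2i and 5393 FPKM under EZH2i. Most of each sum came from the keratin genes KRT5, KRT14 and KRT17, with CDK2i differences of 1.17, 1.35 and 1.29. In CDK2i, EPCAM (0.16), CDH1 (0.46), KRT8 (0.24) and KRT18 (0.51) differed less, and KRT19 was lower (-0.37). Of 8 fibroblast markers 3 were above log2 FPKM 0 in every tumor (COL1A1, DCN and LUM), and the list summed to 25.0, 39.2 and 31.1 FPKM. COL3A1 had log2 FPKM 1.96, 0.52 and -0.11 and FAP had -0.84, -0.24 and 1.18, so in the EZH2i tumor, where WNT11 was low and WNT5A high, these fibroblast genes stood apart from vehicle in opposite directions. Of the endothelial and lymphocyte markers 0 were, with sums of at most 0.927 FPKM, and 1 to 4 of the 5 lymphocyte markers were at -9. Of 5 macrophage markers 1 was, CD14 (sums of 8.37, 8.10 and 3.36 FPKM), with CD163 at -9 under vehicle, CD68 and AIF1 under CDK2i and these 3 under EZH2i. Adipocyte markers summed to 33.2, 19.3 and 3.54 FPKM, nearly all FABP4 (log2 FPKM 5.03, 4.22 and 1.60), with ADIPOQ at -9 in the vehicle and EZH2i tumors. The FABP4, CD14 and COL3A1 levels were lowest in the EZH2i tumor, as that of WNT11 was, and FAP was highest there, as WNT5A was. Of the other fibroblast markers, COL1A1 (0.31), DCN (0.76) and LUM (0.615) went the other way from WNT11 in EZH2i. With the trend removed these EZH2i differences were 0.33, -0.03 and 0.08. COL1A2 (-0.325), PDGFRA (-0.06) and PDGFRB (-0.70) went the same way as WNT11, each below log2 FPKM 0 in every tumor. In CDK2i, FABP4 (-0.81) and COL3A1 (-1.44) were also lower than in vehicle, whereas WNT11 was higher (0.27). The part of these marker genes in the results was not tested.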

How the data were processed

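RNA-seq levels of 3 SUM-149 xenograft tumors were analysed, 1 each for vehicle, CDK2i and EZH2i. Per the labels, total RNA was isolated with a column kit, and the submitters' processing notes name CASAVA, STAR and the genome build hg19. Versions, the counting tool and strandedness are not given in the sources used here. The authors deposited log2 FPKM, with -9 for an FPKM of 0. Differences of log2 FPKM were taken without a pseudocount. A fold above 2 with the higher level above log2 FPKM 3 followed the study's methods. The limma test of those methods gives no p-value with 1 library per group, so none was computed. Depth was estimated from the 1-fragment steps among low values and the longest transcript of GENCODE 44 on GRCh37 (16800000 to 19200000 fragments). With it, 59.5 to 62.5% of low values came out whole within 0.05, so fragment numbers are approximate. Counting intervals are exact binomial at 95% and, like the floor of 3 fragments, cover counting error only.

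The GC and length trend was a polynomial of degree 3, subtracted from each difference. It was fitted over expressed genes with an annotation (92.6% of them), ribosomal protein genes left out. Alternatives were pseudocounts of 0.1 and 1 FPKM, centring, equal summed FPKM (over all genes, or leaving out ribosomal protein and mitochondrial ones), other thresholds and the trend removal. Named were all members, other WNT genes above log2 FPKM 0, and, of each pathway list, genes past both thresholds and the 3 highest in the vehicle tumor. For the highest member the 3 genes of nearest profile were added. AXIN2, APCDD1, SP5, FZD2, FZD4, ZNRF3, DKK3, GPR124, LRP6, APC, TCF7L2, CAMK2D, PRICKLE1, WNT5A-AS1 and the named marker genes fall outside this rule and were picked after their values were seen. Members and lists were chosen with earlier results of these data known. Calculations used Python 3.11.15, numpy 2.4.6, pandas 2.3.3 and scipy 1.17.1, and the scripts were tested on simulated data.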

Additional observations from a re-analysis of the deposited data

How the results depend on the processing

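The counts past both thresholds depended on those thresholds. Among the members, 2 instead of 0 passed in CDK2i with no level minimum (the silent WNT5B and WNT3A). In EZH2i 2 passed as reported, 0 at a fold of 3, 5 with no minimum (WNT5A and the silent WNT5B and WNT7A added), 1 at a minimum of log2 FPKM 5 (WNT11) and 1 after the trend in GC and length was removed (WNT7B). A minimum of log2 FPKM 1 and equal summed FPKM each gave 3, with WNT5A added. A fold of 1.5 also gave 3, with WNT4 added. Over all genes in CDK2i, 752 passed as reported, 1947 at a fold of 1.5, 250 at a fold of 3, 11703 with no minimum (genes at -9 included), 2037 at a minimum of log2 FPKM 1 and 196 at 5. In EZH2i 990 passed as reported, 2710 at a fold of 1.5, 186 at 3, 10795 with no minimum, 2231 at a minimum of 1, 262 at 5, 1621 at equal summed FPKM and 421 with the trend removed (915 as reported on the same annotated genes). The share of higher calls in CDK2i was 28.9% as deposited, 51.0% after centring, 46.1% at equal summed FPKM, 17.6% at equal sums without ribosomal protein and mitochondrial genes and 46.5% with the trend removed. In EZH2i it was 66.9%, 31.8%, 88.9%, 71.4% and 39.4% in the same order. The median change of the 7 expressed members in EZH2i was negative in every setting but the trend removal, and between the treated tumors it was 0.11 as deposited and -0.32 after centring. Of 22 differences of single members, 16 kept their sign in every setting tried. The other 6 were WNT5A in CDK2i, WNT6 and WNT10A in EZH2i, and WNT6, WNT10A and WNT4 between the treated tumors. The settings for the treated tumors against each other and for the median over members were added after seeing the data. The cause of these shifts was not tested. Depth limits what can be read from WNT3A, WNT5B and WNT7A, with at most 11 fragments. No paired analysis was possible because each group has 1 library, and no library could be left out.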
